A study of Mus musculus with 2 samples.

Results

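Rab GTPases are the small GTP-binding proteins that direct membrane vesicles inside the cell. Their transcripts were examined here in mouse monocytic myeloid-derived suppressor cells (M-MDSCs), which are suppressive myeloid cells that were induced from bone marrow. Members were chosen by name alone, as gene symbols made of Rab, a number and at most a letter and a digit, so that Rab-interacting proteins and Rab pseudogenes were not counted. The rule found 59 genes of the 34745 that were listed. CHBP- M-MDSC had been induced for 7 days with 50 ng/ml of the growth factor GM-CSF alone, and CHBP+ M-MDSC with the same GM-CSF together with cyclic helix B peptide (CHBP), a peptide derived from erythropoietin (EPO). The methods give mice of 6 to 8 weeks and a CHBP dose of 20 μM, whereas the dose series of the study is in nM and has 20 nM as its middle dose. The labels name the strain C57BL/6 for CHBP- M-MDSC and C57BL/7 for CHBP+ M-MDSC, while the methods name C57BL/6, so that strain and treatment cannot be told apart from the labels. The labels say that cells were separated by flow cytometry after induction, but the methods of the sequencing speak of MDSCs without naming the sorted subset. Each condition was sequenced as 1 library. There was therefore no replicate spread to compare a difference with, and no p-value was computed.

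As background, a Rab protein cycles between a GTP-bound form, which sits on a particular membrane and recruits effector proteins, and a GDP-bound form, which is held in the cytosol by a GDP dissociation inhibitor (GDI). Guanine nucleotide exchange factors (GEFs) load GTP and GTPase-activating proteins (GAPs) speed its hydrolysis. Lipid anchors that are added by prenylation hold the protein on the membrane. In myeloid cells, Rab proteins are known for carrying phagosomes from the early stage marked by Rab5 to the late stage marked by Rab7, for recycling receptors to the cell surface and for the release of granules.

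The counts summed to 16484504 reads in the CHBP- library and 16280466 reads in the CHBP+ library. Reads of a gene were scaled to the total of its library (CPM), and a count of 0 allows up to 0.182 CPM in the first and 0.184 CPM in the second, the level of 3 reads. The main value was the log2 ratio of CPM, CHBP+ over CHBP-. Each ratio is given with a 95% Clopper-Pearson interval, which covers counting error only and compares these 2 libraries and not the conditions. Levels of different genes are compared in FPKM, reads scaled to gene length and library total, as deposited. Genes that reached 1 FPKM in either library and had 20 or more reads over both were kept, which left 10865 genes, among them 44 Rab genes. Of the M-MDSC and monocyte markers, Itgam, Csf1r and Cd14 were above 99 FPKM in both libraries, whereas Ccr2 had 3.29 and 3.84 FPKM and Ly6c1 3.703 and 2.91 FPKM. All 7 markers of neutrophils and granulocytic MDSCs were kept, with a summed FPKM of 1445 in the CHBP- library and 1661 in the CHBP+ library. Mmp8 had 1290 and 1546 FPKM, Elane 75.2 and 46.3 FPKM and Ngp 66.8 and 57.6 FPKM, while Ly6g, the marker used to exclude granulocytic cells, had 46 and 44 reads. Ly6c2, whose product is part of the sorted phenotype, had 56.9 FPKM in the CHBP- library and 34.0 FPKM in the CHBP+ library. Its log2 ratio of -0.74 became -0.69 (implied length) and -0.38 (longest transcript) with the trend on gene length described below removed. Itgam went the other way, with 157 and 232 FPKM and a log2 ratio of 0.57 (0.50 and 0.38 with that trend removed). An overlapping Itgam entry had 0.61. Csf1r had 113 and 126 FPKM, and Cd14 206 and 179 FPKM. Of the 7 M-MDSC and monocyte entries, 4 were higher in the CHBP+ library and 3 lower. Transcripts of other lineages were also present in both libraries. The summed FPKM of 6 erythroid markers was 1305 in the CHBP- library and 602 in the CHBP+ library, that of 4 eosinophil markers 122 and 89.3, and that of 4 B cell markers 39.7 and 26.1. Of the erythroid sum, Hbb-bs alone gave 708 and 212 FPKM, and all 6 erythroid markers were lower in the CHBP+ library. The 6 dendritic cell markers, of which 4 were kept, summed to 267 and 201 FPKM. Most of this came from H2-Aa (142 and 103 FPKM) and H2-Ab1 (104 and 81.4 FPKM). Zbtb46, which was not kept, went the other way, with 49 and 93 reads. None of 5 T cell markers was kept. In bulk RNA, fewer cells of a type and less RNA per cell cannot be told apart.

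The proteins share a stretch near the switch II region that holds the glutamine needed for GTP hydrolysis, and the coding bases of this stretch are shown for the members on which the results below turn and for the 3 members without that glutamine. Bases were read from the GENCODE M1 transcripts (mm9), 5′ to 3′ on the coding strand. They lie in coding exons, and the capitals mark the codon of the glutamine or of the residue in its place.
Rab7: tgggacacagccggtCAAgaa
Rab5a: tgggatacagctggtCAAgaa
Rab5b: tgggacactgctgggCAGgag
Rab5c: tgggacacagctggcCAAgag
Rab44: tgggacacagctggaCAAgag
Rab11a: tgggacacagcagggCAGgag
Rab2a: tgggatacagcagggCAGgag
Rab2b: tgggatacggctgggCAAgag
Rab34: tgggacacggctggtCAGgaa
Rab4a: tgggacacggccggcCAGgag
Rab20: tgggacaccgcagggCGGgag
Rab24: tgggacacagcaggtTCCgag
Rab25: tgggacacggccggcCTGgag
The 21-base stretch was matched in 56 members and took 46 different forms. Its marked codon read glutamine in 53 of them, arginine in Rab20, serine in Rab24 and leucine in Rab25. No stretch is shown for Rab18 and Rab27b, and none was matched in Rab28. Rab44 also stood apart by size. Its coding sequence gave 725 residues, whereas those of the other members read ran from 194 residues in Rab22a to 291 in Rab12.

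As a family, the Rab transcripts took nearly the same part of both libraries. The 59 genes had 77644 reads in the CHBP- library and 77431 reads in the CHBP+ library, which is 0.471% (95% interval 0.468 to 0.474) and 0.476% (0.472 to 0.479) of all reads. The log2 ratio of the summed reads was 0.014, with an interval of -0.00037 to 0.028 that holds 0. Reads were found on 56 members in the CHBP- library and on 55 in the CHBP+ library, and 43 and 42 members had at least 1 FPKM. The 8 members with the highest mean FPKM held 49.6% of the summed Rab FPKM in the CHBP- library and 49.8% in the CHBP+ library. Of the 15 members that were not kept, 4 had at least 20 reads and 11 had fewer. Rab39b and Rab9b had no reads in either library, and Rab40b had 11 reads in the CHBP- library and none in the CHBP+ library. With the CHBP+ value set to the floor of 3 reads, Rab40b was 3.62-fold lower, without the counting error of the 11 reads. The upper bound of the counting interval of its log2 ratio was -1.31. These members with few reads are named after their values were seen.

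**Figure D1:**
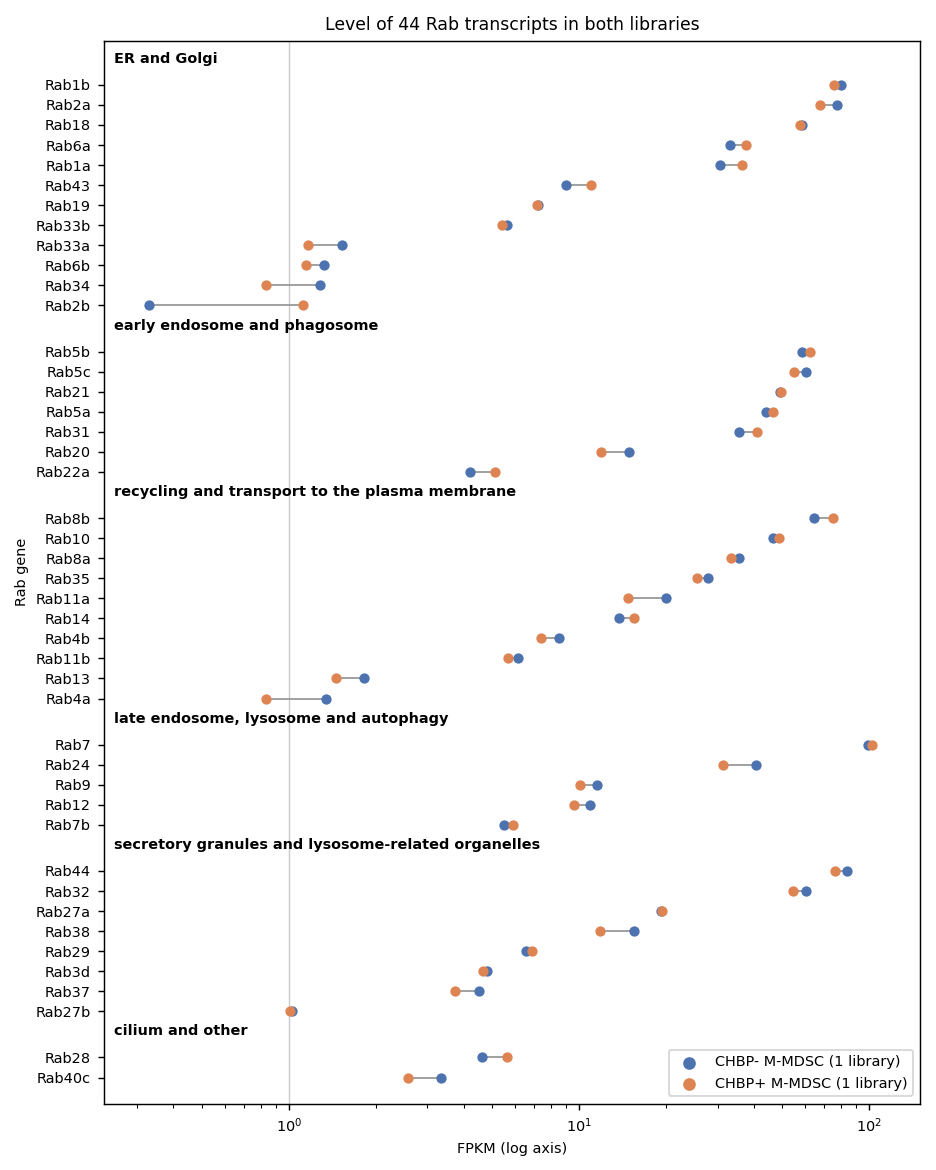
Level of the 44 Rab transcripts kept in the CHBP- library (blue) and the CHBP+ library (orange), in FPKM on a log axis, grouped by the compartment in which each protein is known to act. Each point is 1 library; levels ran from below 1 FPKM to about 100 FPKM for Rab7, and for most genes both points lie close together.

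Few single members differed between the libraries by the 1.5-fold threshold that the study used. Of the 44 members kept, 1 was at least 1.5-fold higher in the CHBP+ library and 2 were at least 1.5-fold lower, against a background of 6.32% higher and 5.33% lower among all genes kept. The share past the threshold in either direction was 6.82% of the members. The counting interval lay above 0 for 11 members (25.0%, background 28.1%) and below 0 for 16 members (36.4%, background 31.2%), and it held 0 for 17. The median log2 ratio was -0.07 for the Rab genes (quartiles -0.20 and 0.08) and -0.03 for all genes kept (quartiles -0.25 and 0.21). Within 1.25-fold of equal CPM lay 36 of 44 Rab genes (81.8%) and 6973 of 10865 genes (64.2%). Among genes with at least 1000 reads over both libraries, where counting error is smaller, these counts were 26 of 28 Rab genes (92.9%) and 4173 of 6035 genes (69.1%).

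**Figure D2:**
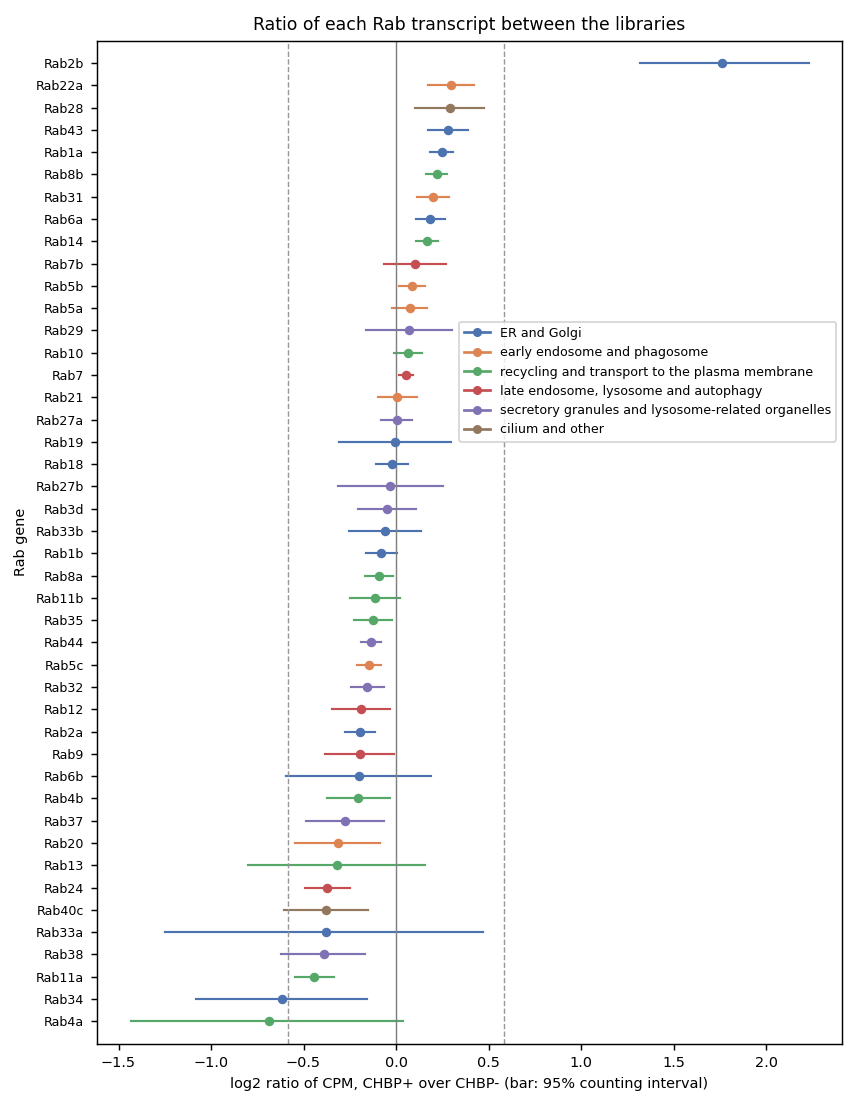
Log2 ratio of CPM (CHBP+ over CHBP-) of the 44 Rab genes kept, in order of the ratio and coloured by compartment; bars are 95% counting intervals and dashed lines mark 1.5-fold. Rab2b at 1.76 lies apart from all others, and 36 of the 44 genes lie within 1.25-fold of equal CPM.

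The 3 members past 1.5-fold were all transcripts of low level. Rab2b (chr14:52261759-52279545, GRCm38) belongs to the Rab2 subfamily, which acts between the endoplasmic reticulum (ER) and the Golgi. It had 54 reads and 0.328 FPKM in the CHBP- library, and 181 reads and 1.11 FPKM in the CHBP+ library. The CHBP+ value was 3.39-fold higher, a log2 ratio of 1.76 (interval 1.32 to 2.23). Rab34 (chr11:78188430-78192193), known from the Golgi, the positioning of lysosomes and the primary cilium, went the other way, with 104 reads and 1.28 FPKM in the CHBP- library against 67 reads and 0.837 FPKM in the CHBP+ library. Its log2 ratio was -0.62 (interval -1.08 to -0.16). Rab4a (chr8:123805985-123835287), a Rab of rapid recycling from early endosomes, had 44 reads and 1.34 FPKM in the CHBP- library and 27 reads and 0.834 FPKM in the CHBP+ library. The interval of its log2 ratio of -0.69 (-1.43 to 0.04) holds 0. All 3 reached 1 FPKM only in the library in which they were higher, so that they passed the filter through that library alone. No member above 2 FPKM in either library was past 1.5-fold. The span of Rab2b overlaps the start of the neighbouring gene Tox4 by 400 bases. Tox4 had 1978 reads in the CHBP- library and 2029 reads in the CHBP+ library, a log2 ratio of 0.05, and how reads in the shared bases were assigned is not given in the sources used here. The summed reads of both genes were 2032 and 2210, a log2 ratio of 0.14. Among the 4 members with at least 20 reads that were not kept, Rab15 had 95 and 56 reads (-0.74, interval -1.25 to -0.25) and Rab3a had 49 and 27 reads (-0.84, interval -1.58 to -0.14), while Rab23 and Rab36 had intervals that hold 0. The span of Rab15 overlaps Fntb (127 and 100 reads) by 24949 bases, and that of Rab3a overlaps Mpv17l2 (213 and 169 reads) by 29 bases. The assignment of reads in these shared bases is likewise not given.

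The ratio of a Rab gene followed its length, as did that of genes in general. Across genes, which are not independent replicates and share both libraries, Spearman's rank correlation of the log2 ratio with the gene length implied by the deposited reads and FPKM was 0.48 over 10865 genes and 0.42 over the 44 Rab genes. With the longest GENCODE M1 transcript in place of the implied length it was 0.65 over 10458 genes and 0.52 over the 44 Rab genes. The 22 shorter Rab genes (1.16 to 4.41 kb) had a median log2 ratio of -0.15 with 6 above 0, and all genes in that range of length had -0.16. For the 22 longer Rab genes (4.52 to 18.4 kb) the median was -0.01 with 11 above 0, against 0.09 for all genes in their range. The trend was therefore removed in 2 ways, on the implied length and on the longest transcript. Where length-adjusted log2 ratios are given below, they stand in that order. Ratios without them are not adjusted. Of the 11 members with an interval above 0, 8 had a positive value under both, while Rab7, Rab14 and Rab22a turned negative under one of them. Of the 16 members with an interval below 0, 12 had a negative value under both, while Rab32 turned positive under both and Rab5c, Rab9 and Rab4b on the longest transcript. Of the 17 members whose interval holds 0, 4 changed sign under at least one. Rab11a, at 5.41 kb, had length-adjusted values of -0.43 and -0.32, and Rab2b 1.60 and 1.72. What made the ratio follow length in these libraries was not tested.

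**Figure D3:**
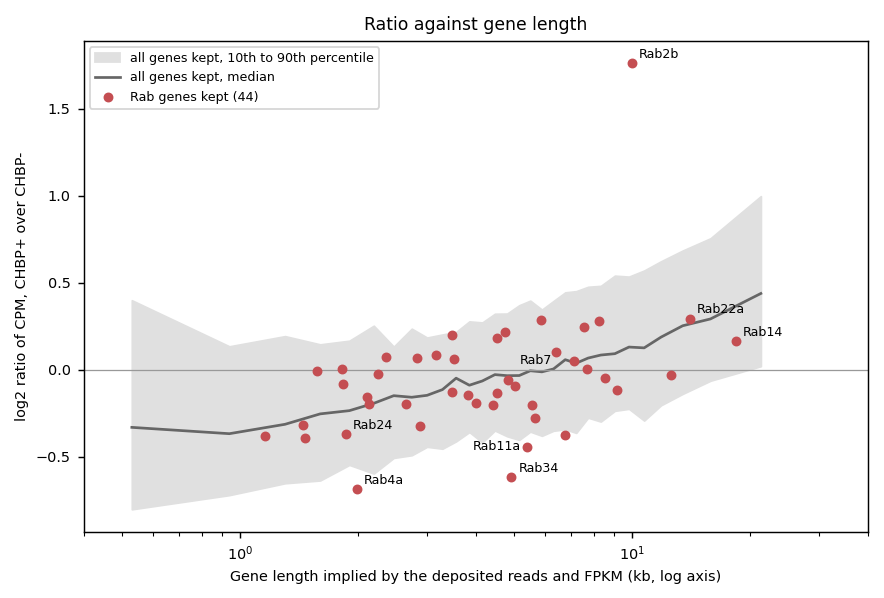
Log2 ratio of CPM (CHBP+ over CHBP-) against the gene length implied by the deposited reads and FPKM, in kb on a log axis. Red points are the 44 Rab genes kept, the line is the median and the grey band the 10th to 90th percentile of all 10865 genes kept in bins of length; the line rises with length, and Rab2b lies far above the band.

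Transport between the ER and the Golgi was represented by 16 members, of which 12 were kept. Their median log2 ratio was -0.04, with 4 intervals above 0 (33.3%, against 28.1% of all genes) and 2 below (16.7%, against 31.2% of all genes). Rab1b and Rab1a are known to carry vesicles from the ER to the Golgi. Rab1b had 2423 reads (80.1 FPKM) in the CHBP- library and 2265 reads (75.8 FPKM) in the CHBP+ library, a log2 ratio of -0.08 with an interval of -0.16 to 0.0039 that holds 0 (length-adjusted 0.12 and 0.12). Rab1a was higher in the CHBP+ library, with 3810 reads against 4463 and a log2 ratio of 0.25 (0.18 to 0.31, length-adjusted 0.17 and 0.30). Rab2a, the abundant partner of Rab2b, had 2725 reads (77.5 FPKM) in the CHBP- library and 2354 reads (67.8 FPKM) in the CHBP+ library, a log2 ratio of -0.19 (-0.27 to -0.11). Its length-adjusted values were close to 0, at -0.01 and -0.04, and Rab2a carried almost all reads of the pair. Rab18, known from lipid droplets and the ER, had 2182 and 2122 reads (58.6 and 57.7 FPKM), with a log2 ratio of -0.02 (-0.11 to 0.06, length-adjusted 0.15 and 0.099). Rab6a, which acts in traffic within and back through the Golgi, had a log2 ratio of 0.19 (0.11 to 0.26), length-adjusted 0.23 and 0.19. Rab43, also a Golgi Rab, had 0.28 (0.17 to 0.39), length-adjusted 0.18 and 0.12.

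The early endosome and phagosome members were all expressed. All 7 were kept, with a median log2 ratio of 0.07. There were 3 intervals above 0 (42.9%, against 28.1% of all genes) and 2 below (28.6%, against 31.2% of all genes). The 3 Rab5 proteins control fusion of early endosomes and the first steps of phagosome maturation, and their transcripts were at similar levels. Rab5a had 1717 reads (44.2 FPKM) in the CHBP- library and 1784 reads (46.5 FPKM) in the CHBP+ library, and the interval of its log2 ratio of 0.07 (-0.02 to 0.17) holds 0. Adjusted for length, the ratio of Rab5a was 0.24 and 0.19, above that interval. Rab5b had 3066 reads (58.7 FPKM) and 3213 reads (62.3 FPKM), with a log2 ratio of 0.09 (0.01 to 0.16, length-adjusted 0.20 and 0.093). Rab5c was the lower one in the CHBP+ library, with 3815 reads (60.7 FPKM) in the CHBP- library and 3405 reads (54.8 FPKM) in the CHBP+ library, a log2 ratio of -0.15 (-0.21 to -0.08) that became -0.06 and 0.034 after adjustment for length. The Rab5 reads together were 8598 and 8402, a log2 ratio of -0.02. Rab22a and Rab31, relatives of Rab5 that act on early endosomes and on transport from the trans-Golgi network, had log2 ratios of 0.29 (0.17 to 0.42) and 0.20 (0.11 to 0.29). The length-adjusted values of Rab31 were 0.30 and 0.17, whereas those of Rab22a were 0.024 and -0.11. Rab21, known for the traffic of integrins, had 49.3 and 49.5 FPKM. Rab20, a phagosome Rab and one of the members without the switch II glutamine, had 14.8 FPKM in the CHBP- library and 11.9 FPKM in the CHBP+ library, a log2 ratio of -0.32 (-0.55 to -0.09, length-adjusted -0.087 and -0.053).

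Rab7, which drives the fusion of late endosomes and phagosomes with lysosomes, was the most abundant Rab transcript of both libraries by FPKM. It had 11568 reads and 98.7 FPKM in the CHBP- library, and 11861 reads and 102 FPKM in the CHBP+ library. The log2 ratio was 0.05 (0.02 to 0.09), a difference of 1.04-fold (length-adjusted -0.0080 and 0.20). Rab7 made up 8.40% of the summed Rab FPKM in the CHBP- library and 8.90% in the CHBP+ library. Rab7b, a relative linked to transport from endosomes to the trans-Golgi network, was far lower, with 583 reads (5.52 FPKM) and 618 reads (5.92 FPKM), and the interval of its ratio holds 0. Rab24, which is linked to autophagy and has serine in place of the glutamine, had 1249 reads (40.6 FPKM) in the CHBP- library and 954 reads (31.4 FPKM) in the CHBP+ library, a log2 ratio of -0.37 (-0.49 to -0.25, length-adjusted -0.17 and -0.18). Rab9, known from transport between late endosomes and the trans-Golgi network, and Rab12 had log2 ratios of -0.20 and -0.19, both with intervals below 0. Adjusted for length, these were -0.049 and 0.066 for Rab9, and -0.12 and -0.025 for Rab12. The median of the 5 members kept of 6 was -0.19, and the sixth, Rab9b, had no reads.

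Recycling and transport to the plasma membrane had 13 members, of which 10 were kept, with a median log2 ratio of -0.12. Of their intervals, 2 lay above 0 (20%, against 28.1% of all genes) and 4 below (40%, against 31.2% of all genes). Rab11a is the main Rab of the recycling endosome. It had 1781 reads (20.0 FPKM) in the CHBP- library and 1295 reads (14.7 FPKM) in the CHBP+ library, and its log2 ratio of -0.44 (-0.55 to -0.34) was the lowest among members with at least 1000 reads over both libraries. Rab11b had 931 reads (6.16 FPKM) and 850 reads (5.69 FPKM), and the interval of its log2 ratio of -0.11 (-0.25 to 0.02, length-adjusted -0.25 and -0.034) holds 0. Rab8b, of a subfamily that carries vesicles from the Golgi and recycling endosomes to the cell surface, was higher in the CHBP+ library, with 5054 reads (64.6 FPKM) in the CHBP- library and 5809 reads (75.2 FPKM) in the CHBP+ library, a log2 ratio of 0.22 (0.16 to 0.27, length-adjusted 0.26 and 0.040). Its paralogue Rab8a was slightly lower, with a log2 ratio of -0.09 (-0.17 to -0.02, length-adjusted -0.069 and -0.25). Rab14, which acts between the Golgi and endosomes, had a log2 ratio of 0.17 (0.11 to 0.23) that became -0.20 and 0.031 after adjustment for length, and Rab10, with 46.6 and 48.7 FPKM, had an interval that holds 0. Rab35, a Rab of recycling at the plasma membrane, had -0.12 (-0.23 to -0.02, length-adjusted -0.024 and -0.067).

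Secretory granules and lysosome-related organelles had 12 members, of which 8 were kept, with no interval above 0 (28.1% of all genes) and 4 below (31.2% of all genes), and a median log2 ratio of -0.09. Their summed reads, members not kept included, were 12833 in the CHBP- library and 11719 in the CHBP+ library, a log2 ratio of -0.11 (-0.15 to -0.08). Rab44 alone gave 6252 and 5622 of these reads. For the other compartments, the log2 ratio of summed reads ran from -0.0025 to 0.077. Rab44, a large Rab known from granule release in mast cells, was the second most abundant Rab transcript by FPKM, just ahead of Rab1b and Rab8b in the CHBP+ library. It had 6252 reads (83.9 FPKM) in the CHBP- library and 5622 reads (76.4 FPKM) in the CHBP+ library, a log2 ratio of -0.14 (-0.19 to -0.08, length-adjusted -0.088 and -0.24). Rab32 and Rab38 are known from the making of lysosome-related organelles and from pathogen-containing vacuoles. Rab32 had 2107 reads (60.6 FPKM) and 1869 reads (54.5 FPKM), with a log2 ratio of -0.15 (-0.25 to -0.06), and Rab38 had 376 reads (15.5 FPKM) and 283 reads (11.8 FPKM), with a log2 ratio of -0.39 (-0.62 to -0.17). Adjusted for length, the values were 0.028 and 0.0029 for Rab32, and -0.16 and -0.13 for Rab38. Rab27a, which docks secretory granules and lysosome-related organelles at the plasma membrane, was level between the libraries, with 2423 reads in the CHBP- library and 2398 reads in the CHBP+ library, 19.2 FPKM in both and a log2 ratio of 0.0030 (-0.08 to 0.09). Rab27b was near the 1 FPKM limit, with 212 and 205 reads (1.03 and 1.01 FPKM). The log2 ratio of Rab27b was -0.03, length-adjusted -0.26 and -0.41. Rab37, a Rab of secretory granules, had a log2 ratio of -0.27 (-0.48 to -0.06, length-adjusted -0.28 and -0.19), and its span overlaps Cd300lf, which had 4407 and 4621 reads. Markers of mast cells and basophils had a median log2 ratio of -0.13, which was -0.030 and -0.017 after adjustment for length. Of the 7 neutrophil markers above, 5 were lower in the CHBP+ library, but the summed FPKM of the 7, mostly from Mmp8, was higher. The counting interval lay below 0 for 2 of the 7, above 0 for 1 and held 0 for 4. Their median log2 ratio of -0.21 became 0.06 and 0.14 after adjustment for length. The summed FPKM of the 7 mast cell and basophil markers, all of them kept, was 299.7 in the CHBP- library and 247.4 in the CHBP+ library, and none of these markers was at 0 in either library. Cpa3, a mast cell protease, had 141 and 130 FPKM, with length-adjusted log2 ratios of 0.097 and 0.14. In contrast, Kit (3.02 and 3.51 FPKM) and Ms4a2, a chain of the IgE receptor (2.46 and 6.11 FPKM), were higher in the CHBP+ library, and the other 5 of the list were lower. The part of these cells, or of the eosinophil markers above, in the granule Rab values was not tested.

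Paralogues of a subfamily did not all keep their shares. Shares are of the summed FPKM of each subfamily. Within Rab5, the share of Rab5c went from 37.1% in the CHBP- library to 33.5% in the CHBP+ library, while those of Rab5a (27.0% and 28.4%) and Rab5b (35.9% and 38.1%) were higher. Rab1a held 27.7% and 32.4% of the Rab1 FPKM, Rab8b 64.5% and 69.3% of the Rab8 FPKM, and Rab11a 76.4% and 72.1% of the Rab11 FPKM. By reads, however, the share of Rab1a was 61.1% in the CHBP- library and 66.3% in the CHBP+ library. Per kilobase of the longest transcript it was 50.8% and 56.4%. Adjusted for length, the log2 ratios of Rab1a (0.17 and 0.30) and Rab1b (0.12 and 0.12) lay closer together than the unadjusted 0.25 and -0.08. A single paralogue dominated several subfamilies in both libraries. Rab7 held 94.7% and 94.54% beside Rab7b, Rab27a 94.9% and 95.03% beside Rab27b, Rab32 79.6% and 82.2% beside Rab38, and Rab2a 99.6% and 98.4% beside Rab2b. The Rab11 subfamily as a whole had 2712 reads in the CHBP- library and 2145 reads in the CHBP+ library, a log2 ratio of -0.32, which was the lowest of the 12 subfamilies. Rab22a and Rab31 together had the highest, 0.23. The order of levels rests on the length used for scaling. Rab7 was first per kilobase of either length, but per kilobase of the longest GENCODE M1 transcript Rab5c had rank 2, Rab1a rank 3 and Rab44 rank 4, against ranks 8, 17 and 2 by FPKM.

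**Figure D4:**
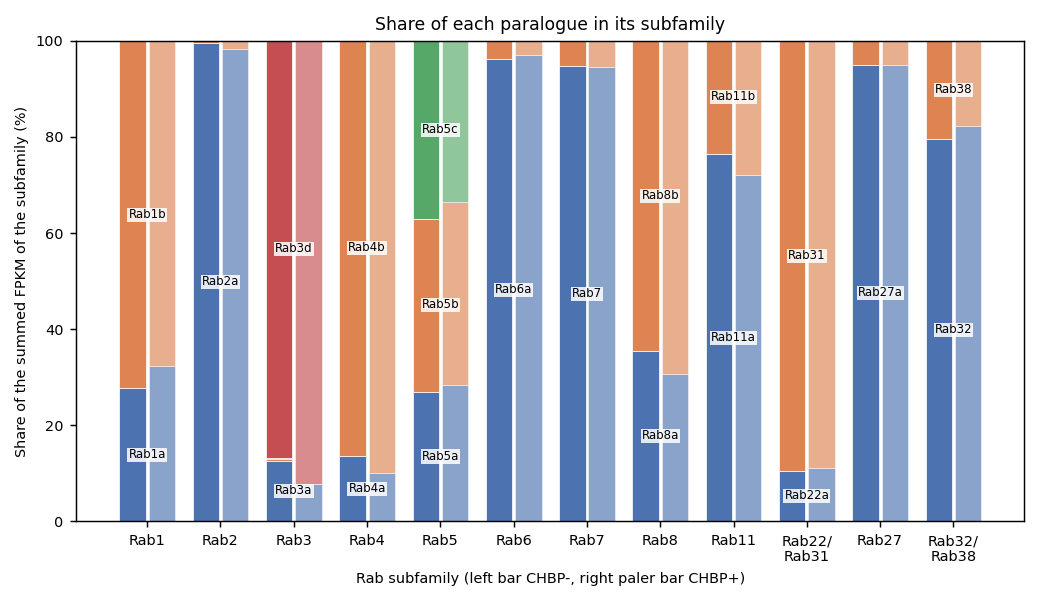
Share of each paralogue in the summed FPKM of its Rab subfamily, in percent, with the CHBP- library as the left bar and the CHBP+ library as the paler right bar. The Rab7 and Rab27 bars are nearly equal between the libraries, while Rab1a and Rab8b have larger shares and Rab5c and Rab11a smaller shares in the CHBP+ bar. The trend of the ratio with gene length is not removed.

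Sequence shared among Rab genes was also measured. Over the GENCODE M1 transcripts, no pair of the 59 members shared a stretch of 75 bases, the length of the reads, and 49 members shared none with any other coding transcript or annotated pseudogene. More than 5% of such stretches were shared for 4 members. These were Rab4b (77.6%, with Mia, which had 5 reads in the CHBP- library and none in the CHBP+ library), Rab11b (37.5%, nearly all with a pseudogene), Rab5b (10.6%, with a pseudogene) and Rab5a (6.04%, with Pp2d1, which had no reads). A pseudogene of Rab11b that is listed in the data, Rab11b-ps2, had 354 and 349 reads, and how reads were divided between it and Rab11b was not tested.

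Regulators and effectors of the Rabs were described in the same way. Of 139 listed genes, 138 entries were found and 116 were kept, and 15 of these (12.9%, with 6.32% over all genes) exceeded 1.5-fold upwards in the CHBP+ library and 2 (1.72%, with 5.33% over all genes) downwards, with a median log2 ratio of 0.20. Their transcripts are longer. The median of the longest transcript was 4.83 kb for GEFs, 4.32 kb for GAPs and 5.004 kb for effectors, against 2.48 kb for the Rab genes. With the length trend removed, the median was 0.07 (implied length) or 0.0099 (longest transcript), and 5 or 2 of the genes were at least 1.5-fold higher, against 4.76% or 3.54% of all genes treated in the same way.

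Among the 8 genes of prenylation, escort and GDI, all kept, the median log2 ratio was -0.16. Gdi2, the abundant GDI, had 13215 reads (299.0 FPKM) in the CHBP- library and 12399 reads (284 FPKM) in the CHBP+ library, a log2 ratio of -0.07 (-0.11 to -0.04). Chm and Chml encode the escort proteins that present new Rab proteins for prenylation. Chm had 687 reads in the CHBP- library and 1101 in the CHBP+ library, a log2 ratio of 0.70 (0.56 to 0.84), and Chml had 283 and 460 reads, a log2 ratio of 0.72 (0.50 to 0.94). Both were higher in the CHBP+ library also after adjustment for length, at 0.52 and 0.51 for Chm, and 0.70 and 0.91 for Chml, whose span overlaps Opn3. Rabac1, a protein linked to the release of Rabs from GDI, had 1048 and 778 reads, a log2 ratio of -0.41 (-0.55 to -0.28, length-adjusted -0.28 and -0.059).

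For GEFs, 3 of 30 kept (10%, against 6.32% of all genes) were at least 1.5-fold higher and none lower (5.33% of all genes), with a median log2 ratio of 0.21. Adjusted for length, 1 or none of the GEFs was higher, against 4.76% or 3.54% of all genes. The GEFs past 1.5-fold before adjustment are given next. Ric1, part of the exchange factor of Rab6, had 527 and 974 reads (log2 ratio 0.90), Sbf2, a DENN domain protein, had 382 and 614 reads (0.70), and Dennd4a, a GEF of Rab10, had 3554 and 5572 reads (0.67). Dennd5a, the next most abundant GEF, had a log2 ratio of 0.33. For GAPs, 2 of 32 kept (6.25%, near the 6.32% of all genes) were higher and 1 lower (3.1%, against 5.33% of all genes), with a median of 0.12. Adjusted for length, 1 or none of the GAPs was higher, against 4.76% or 3.54% of all genes. The GAPs past 1.5-fold before adjustment were Tbc1d9 (344 and 530 reads, 0.64), Tbc1d8b (244 and 363 reads, 0.59) and an entry of Sgsm3 with 58 and 17 reads (-1.75) that overlaps another entry of the same gene. The GAPs with the highest FPKM, Tbc1d15 and Tbc1d20, had log2 ratios of 0.11 and -0.14.

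For effectors, 8 of 47 kept (17.0%, against 6.32% of all genes) were at least 1.5-fold higher and 1 lower (2.13%, against 5.33% of all genes), with a median log2 ratio of 0.23. Adjusted for length, 2 or 1 of the 47 were past 1.5-fold upwards, against 4.76% or 3.54% of all genes. Eea1, the tether of early endosomes that binds Rab5, had 2692 reads (20.8 FPKM) in the CHBP- library and 4125 reads (32.3 FPKM) in the CHBP+ library, a log2 ratio of 0.63 (0.56 to 0.70). Rilp, which links Rab7 to dynein, was lower in the CHBP+ library, with 39 and 15 reads and a log2 ratio of -1.36 (-2.33 to -0.47), at 1.06 FPKM or less. The Rab11 effectors Rab11fip2 and Rab11fip4 had 0.76 and 0.63, and Myo5a, the motor of Rab27a and Rab11a vesicles, had 0.71. Among other genes of that family, named here to complete it, Rab11fip1 had 0.36 and Rab11fip5 0.072, and Rab11fip3, which was not kept, had -0.41. The others past 1.5-fold were Cracr2a (0.83), a calcium sensor with a Rab domain, Hook3 (0.81), a dynein adaptor, Lrrk2 (0.69), a kinase of Rab proteins, and Fyco1 (0.69), a Rab7 effector of microtubule transport. Cracr2a had only 33 and 58 reads (interval 0.19 to 1.49), and Rab11fip2 had 0.794 and 1.34 FPKM. Adjusted for length, Eea1 was at 0.55 and 0.17, Hook3 at 0.56 and 0.02, and Myo5a at 0.30 and -0.01. Rab11fip4 was at 0.55 and 0.22, Rab11fip2 at 0.61 and 0.51, and Cracr2a at 1.04 and 1.15. Lrrk2 was at 0.44 and 0.20 and Fyco1 at 0.47 and 0.22, while Rilp was at -1.19 and -1.10. The spans of Fyco1 and Rab11fip4 overlap another listed gene. The effectors with the highest FPKM, Ehbp1l1 and Exoc6, had intervals that hold 0.

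**Figure D5:**
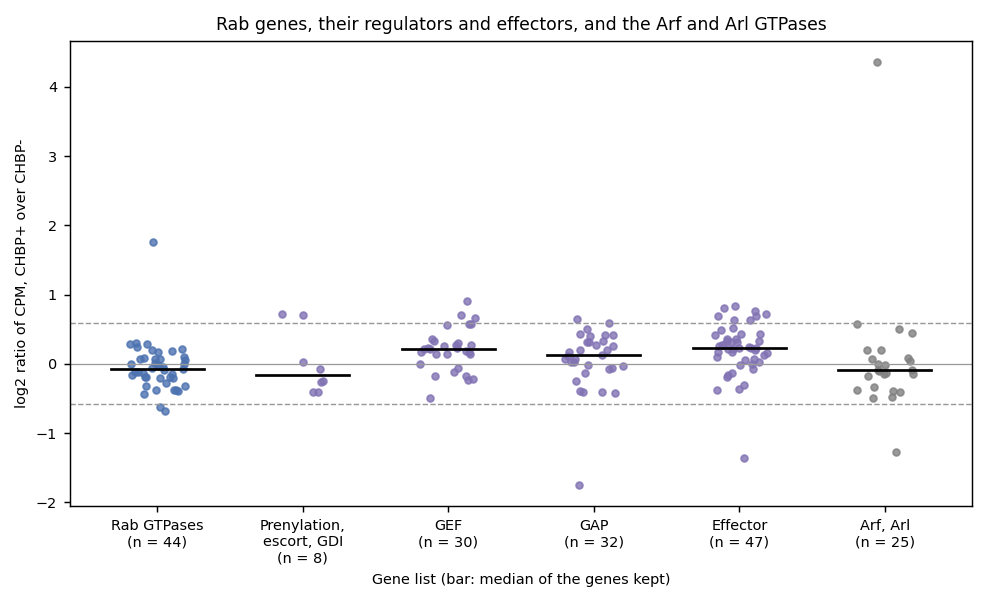
Log2 ratio of CPM (CHBP+ over CHBP-) of the Rab genes, the lists of their regulators and effectors, and the Arf and Arl GTPases; each point is a gene kept, bars are medians and dashed lines mark 1.5-fold. The medians of GEFs (0.21), GAPs (0.12) and effectors (0.23) lie above 0 and that of the Rab genes (-0.07) below, before any adjustment for gene length.

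The Arf and Arl genes, small GTPases that act in vesicle budding, had a median log2 ratio of -0.09 over 25 kept. Adjusted for length, this median was 0.039 and 0.024. Arf1, a GTPase of coat assembly at the Golgi, had 9589 reads (172.6 FPKM) in the CHBP- library and 3918 reads (71.4 FPKM) in the CHBP+ library, a log2 ratio of -1.27 (-1.33 to -1.22), whereas the lowest Rab ratio at 1000 or more reads was that of Rab11a, -0.44.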

How the data were processed

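mRNA from 2 libraries of mouse bone marrow M-MDSCs, 1 per condition, was analysed. Samples were grouped by the treatment in their labels. The deposited counts are unscaled reads per gene, and the deposited FPKM divide these counts by a gene length and by the total of the library (FPKM per read differed by a factor of 0.988 between the libraries). Per the labels, adapters, bases of low quality, short reads and ribosomal reads had been removed with Seqtk. The methods of the study name TopHat2, mm9, HT-seq and DESeq with single-end reads of 75 bases, whereas the submitters' processing notes name HISAT2 2.0.4, Cufflinks 2.1.1, Cuffdiff, mm10 and GRCm38. The deposited spans of 59 of 59 members overlapped RefSeq genes of GRCm38.p6 by symbol, and 5 of 59 overlapped the GENCODE M1 (mm9) genes, so coordinates are given as GRCm38. The handling of strand and of reads with several matches is not given in the sources used here, so values of overlapping genes are uncertain.

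With no replicates, no count model was fitted. Ratios of CPM are given with 95% Clopper-Pearson intervals. Because reads without molecular identifiers can be copies of one molecule, intervals and floors cover counting error only. Genes kept reached 1 FPKM in either library and had 20 or more reads over both, and 1.5-fold was the threshold of the study. Members, gene lists and roles were chosen with earlier results of these data known. Any member with at least 20 reads could be named. Values in full are given for members past 1.5-fold, for the 8 with the highest mean FPKM and for the Rab5, Rab7, Rab11, Rab27 and Rab32/Rab38 subfamilies. Regulators and effectors past 1.5-fold or among the highest 2 by FPKM of their list are named, not all of them with full values. Alternatives were log2(FPKM + 1), a minimum of 5 FPKM or none, centring on the median, edgeR 4.0.16 trimmed mean of M values, median of ratios size factors (DESeq2 1.42.0), a 2-fold threshold, overlapping genes (with at least 10 reads) left out, and removal of the length trend with a polynomial of degree 3. Use of the longest GENCODE M1 transcript, and trend removal for the regulators, were chosen after seeing the data. Scripts were tested on simulated data. Python 3.11.15, pandas 2.3.3, scipy 1.17.1, R 4.3.3 and matplotlib 3.10.9 were used. Other assays of the study were not used here.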

Additional observations from a re-analysis of the deposited data

How the results depend on the processing

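The median log2 ratio of the Rab genes kept moved by less than the spread among them under every alternative, from -0.09 to 0.01. The 2 Rab genes at least 1.5-fold lower became 0 with log2(FPKM + 1), with a minimum of 5 FPKM, with a 2-fold threshold and with the longest transcript trend removed, 1 with median centring and with the implied length trend removed, and 4 with no FPKM minimum. The 1 Rab gene at least 1.5-fold higher, Rab2b, became 0 with a minimum of 5 FPKM and with overlapping genes left out. The summed Rab log2 ratio of 0.014 became -0.030 with log2(FPKM + 1), 0.049 with median centring and 0.033 with the implied length trend removed. The 15 higher regulators and effectors became 5 and 2 with the trend on implied length and on the longest transcript removed. Among the Rab genes with full values whose interval excludes 0, signs turned with the length trend removed for Rab32 (0.028 and 0.0029), Rab5c (0.034, longest transcript) and Rab7 (-0.0080, implied length). Among those whose interval holds 0, they turned for Rab1b (0.12 and 0.12), Rab18 (0.15 and 0.099) and Rab27a (-0.079, implied length). Outside these, Rab14, Rab22a, Rab9, Rab4b and Rab19 also changed sign under at least one of these adjustments. Of the 19 Rab genes with full values, all 19 stayed within their intervals under median centring, trimmed mean of M values and median of ratios size factors. With log2(FPKM + 1), 18 did. With the length trend removed, only 9 stayed within their intervals on the implied length and 7 on the longest transcript. The values with fewer genes follow from the stricter filters, and the cause of the others was not tested.

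No paired analysis was possible because each condition had 1 library, and no replicate was there to leave out. Rab genes with few reads are limited by depth. The interval of Rab4a, with 71 reads in all, holds 0 although its ratio is past 1.5-fold.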

Other observations

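Among small GTPases outside the Rab family, Arl5b, a GTPase of the trans-Golgi network, had 37 reads in the CHBP- library and 750 reads in the CHBP+ library, a log2 ratio of 4.36 (3.88 to 4.88). Its span overlaps Nsun6, and its FPKM was 0.118 and 2.41. Among Rab-like genes, Ift27, a Rab-like protein of transport in the cilium, had 232 and 151 reads, a log2 ratio of -0.60 (-0.91 to -0.30, length-adjusted -0.34 and -0.27). Ran, the GTPase of nuclear transport, had 4879 and 3714 reads, a log2 ratio of -0.38 (-0.44 to -0.31, length-adjusted -0.24 and -0.26). Arl5b was chosen after its values were seen.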
